A study of Mus musculus with 24 samples.

Results

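The mitochondrially encoded genes are all 37 genes that the RNA tables place on the mitochondrial chromosome, out of 55414 genes in all. They comprise 13 protein genes, 2 ribosomal RNA (rRNA) genes and 22 transfer RNA (tRNA) genes, and position alone chose them. The study profiled spleen RNA and immune receptor repertoires of BALB/c mice, in a model made by injecting CT-26 cells, a mouse colon carcinoma line, into the right side at 8 weeks of age. Its design text sets tumour-bearing mice against normal ones, and the 8 RNA libraries fall by title into 4 titled control and 4 titled CT-26 tumur. The treatment field says the opposite of the titles, since it marks every library titled control as injected with CT-26 cells and every library titled CT-26 tumur as a healthy control. The sets are therefore named by title, each difference is the titled CT-26 tumur set minus the titled control set, and none is read as an effect of the tumour. All groups share tissue, strain and the cell type given as splenocyte, and nothing in the labels says whether each library is 1 mouse or a pool. The p-values then measure only the spread between these libraries, which may be technical. RNA counts totalled 735298 to 1970950 per library.

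Mitochondrial DNA is a small circle that is copied from both strands as long precursor RNAs. Most genes lie on one strand as sense sequence, with mt-Nd6 and several tRNAs on the other. The tRNAs sit between the larger genes, and their excision releases most of the rRNAs and mRNAs, a scheme called tRNA punctuation. The protein genes encode core subunits of respiratory complexes I, III, IV and V, whose remaining subunits come from the nucleus, while the rRNAs and tRNAs serve translation inside the organelle. In spleen the content of mitochondria differs widely between cell types, from maturing red cells that lose them to dividing precursors.

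Mitochondrially encoded genes took a smaller share of all counts in every titled CT-26 tumur library than in any titled control library. The share was 66.1%, 48.7%, 46.2% and 58.3% in titled control 1 to 4. It was 41.1%, 32.0%, 39.2% and 37.6% in titled CT-26 tumur 1 to 4. The means were 54.8 ± 9.15% (SD, n = 4) and 37.5 ± 3.91% (SD, n = 4), a difference of -17.3 percentage points, and the sets did not overlap. Counting error was small beside this spread, with the widest 95% Wilson interval spanning 0.221 points. As a sum over the members the share is described without a test. Lanes, as given in the file names of the libraries, gave the same order. In lane 1 titled control 3 stood at 46.2%, against 32.0% and 37.6% in titled CT-26 tumur 2 and 4. In lane 2 titled control 1 and 4 stood at 66.1% and 58.3%, against 41.1% in titled CT-26 tumur 1. The remaining lanes, 3 and 4, held 1 library each. In bulk RNA, fewer cells of a mitochondria-rich type, less mitochondrial RNA per cell and more RNA from other genes cannot be told apart.

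**Figure D1:**
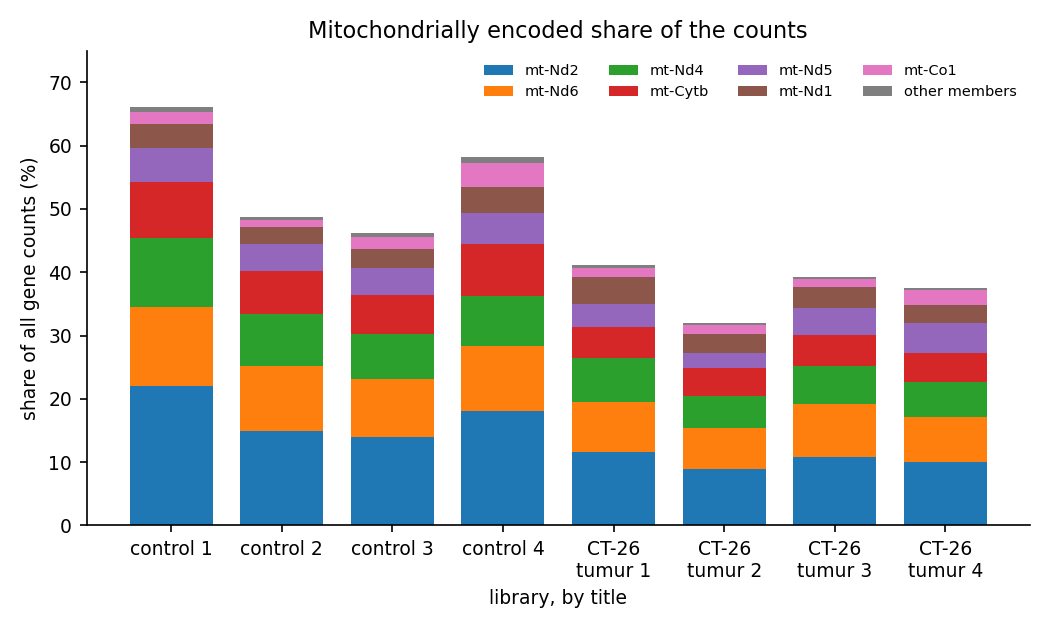
Share of all gene counts (percent, vertical axis) taken by mitochondrially encoded genes in each RNA library (horizontal axis), stacked by gene, with all members beyond the named 7 shown together. The 4 titled control libraries reach 46.2% to 66.1% and the 4 titled CT-26 tumur libraries 32.0% to 41.1%.

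Nearly all of these counts came from protein genes, which held 54.3 ± 9.03% of all counts in the titled control set and 37.2 ± 3.89% in the titled CT-26 tumur set (SD, n = 4 each). The 6 genes mt-Nd1, mt-Nd2, mt-Nd4, mt-Nd5, mt-Nd6 and mt-Cytb together gave 94.8 ± 2.34% of the mitochondrial counts in the titled control set and 94.6 ± 1.52% in the other. The 2 rRNAs gave 0.832 ± 0.250% and 0.677 ± 0.043% of the mitochondrial counts, and the 22 tRNAs 0.0508 ± 0.0122% and 0.0528 ± 0.00567%. Each of these 3 shares of mitochondrial counts overlapped between sets.

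Within this pool the protein genes stood at very different levels, although most derive from the same precursor. Levels between genes are compared as CPM per kilobase, that is counts scaled by TMM to a library total of 1000000, divided by gene length. In the titled control set mt-Nd6 stood at 246451 ± 89643 and mt-Nd2 at 204106 ± 89250 CPM per kb (SD, n = 4). The gap was smaller than either SD, but mt-Nd6 was the higher in every library. Then came mt-Cytb at 79988 ± 31127, mt-Nd4 at 75928 ± 32118, mt-Nd1 at 42629 ± 15793 and mt-Nd5 at 31485 ± 10082 CPM per kb. In both neighbouring pairs, mt-Cytb with mt-Nd4 and mt-Nd1 with mt-Nd5, the gap was smaller than the SD of the higher member. Within libraries mt-Nd1 was always above mt-Nd5, while mt-Cytb and mt-Nd4 changed order. mt-Co1 followed at 16881 ± 9809 CPM per kb, and below it the next member, mt-Rnr1, was at 2601 ± 1390, with mt-Rnr2 at 2005 ± 951. The lowest 6 were mt-Co2 at 1416 ± 564, mt-Atp6 at 947 ± 434, mt-Co3 at 732 ± 286, mt-Nd4l at 414 ± 231, mt-Nd3 at 239 ± 50.5 and mt-Atp8 at 116 ± 84.4 CPM per kb. Among these, only the steps from mt-Co3 to mt-Nd4l and from mt-Nd3 to mt-Atp8 exceeded the SD of the higher member. Each SD is between libraries, in which members can rise and fall together. It therefore does not measure how steadily members differ within a library, which was not tested. Counts were made without strand, so the level of mt-Nd6 also takes in any RNA of the opposite strand across it.

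Sequence shared with the nuclear genome divided the protein genes along nearly the same line. Each member's transcript was cut into all windows of 50 bases, and the share of windows found letter for letter in an annotated transcript elsewhere was taken. This share was 100% for mt-Co2, 99.9% for mt-Co3, 99.5% for mt-Atp6, 98.8% for mt-Nd4l and 98.0% for mt-Nd3. It was 62.2% for mt-Nd4, 51.1% for mt-Co1, 8.19% for mt-Nd2 and 7.61% for mt-Nd5. For mt-Rnr2 it was 1.04%, and for mt-Rnr1, mt-Nd1, mt-Nd6, mt-Cytb and mt-Atp8 it was 0. The 5 members with more than 90% of windows copied lay between 239 and 1416 CPM per kb in the titled control set. The other 7 protein members apart from mt-Atp8 lay between 16881 and 246451 CPM per kb. mt-Atp8 was the exception, low at 116 CPM per kb with no window in an annotated copy. It is short and overlaps mt-Atp6, as mt-Nd4l overlaps mt-Nd4. Fragments over both genes of such a pair were assigned to neither under the counting options in the headers. The part of this loss in their levels was not tested. Per the file headers, fragments were counted without the option that admits those aligned to several places, and the part of shared sequence in these levels was not tested.

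The copies of mt-Nd2, mt-Nd5 and mt-Rnr2, and the full-length copy of mt-Co1, lie on other chromosomes. Those of the 5 most copied members and of mt-Nd4, with a partial one of mt-Co1, belong to 7 pseudogenes in a row on the minus strand of chromosome 1, at chr1:24650616-24655278 in the coordinates of the tables. This block spans 4663 bases, and its copies of mt-Co2 to mt-Nd4 keep the order and spacing of the mitochondrial genome to within 1 base. The spacing of the partial mt-Co1 copy was not measured. In order the 7 pseudogenes copy part of mt-Co1 (Gm29216), mt-Co2 (Gm28661), mt-Atp6 (Gm10925), mt-Co3 (Gm28437), mt-Nd3 (Gm28438), mt-Nd4l (Gm10222) and the first 876 bases of mt-Nd4 (Gm28439). Between the copies of mt-Co2 and mt-Atp6 lies an unannotated gap of 233 bases, as long as the matching stretch of the mitochondrial genome, where mt-Tk and most of mt-Atp8 lie. Whether this gap holds a copy of mt-Atp8 was not examined, since no genome sequence was used here. To show how close a copy in this block is, mt-Nd3 (chrM:9459-9806, plus strand) and its copy Gm28438 are printed from GENCODE M21 transcripts over bases 1 to 150, 5′ to 3′, with the only differing base in capitals.
mt-Nd3: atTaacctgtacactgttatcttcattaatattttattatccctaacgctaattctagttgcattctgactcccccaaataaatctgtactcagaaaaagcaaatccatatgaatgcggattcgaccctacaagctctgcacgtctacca
Gm28438: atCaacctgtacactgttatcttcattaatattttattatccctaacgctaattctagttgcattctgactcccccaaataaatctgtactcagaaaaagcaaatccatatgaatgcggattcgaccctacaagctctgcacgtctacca
Over the 345 aligned bases the pair differ by T3C, counted from the first base of mt-Nd3, so a fragment that misses this base has the same letters in both. At the other end stands mt-Nd6 (chrM:13552-14070, minus strand), whose nearest annotated copy is Gm11408 on chromosome 4, with 93.6% identity. They differ at 33 of 519 bases, and the 150 bases with most differences, 209 to 358, are printed with the 18 differences of that stretch in capitals.
mt-Nd6: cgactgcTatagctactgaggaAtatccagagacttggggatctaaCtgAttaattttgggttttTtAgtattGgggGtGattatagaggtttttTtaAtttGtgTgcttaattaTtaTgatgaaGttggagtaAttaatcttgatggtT
Gm11408: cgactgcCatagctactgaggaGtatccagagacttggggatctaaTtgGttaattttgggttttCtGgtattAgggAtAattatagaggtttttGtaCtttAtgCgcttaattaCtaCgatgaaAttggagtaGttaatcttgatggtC
Here the differences are spread along the gene and no window of 50 bases is shared. In the plot of level against copied sequence mt-Nd6 is the highest member on the left, and mt-Nd3 the lowest on the right by titled control mean.

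**Figure D2:**
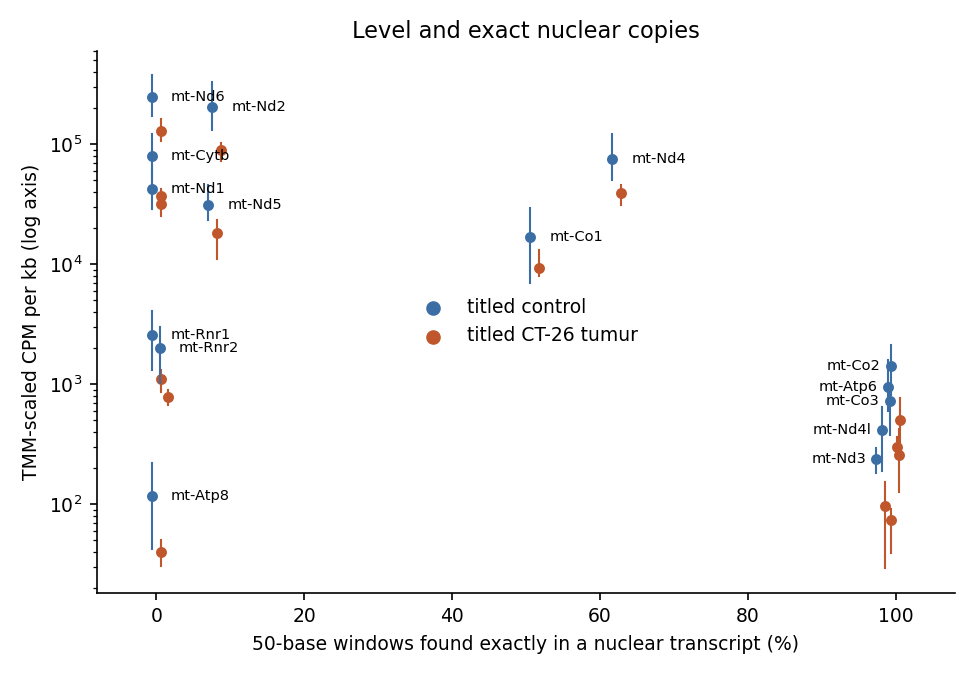
TMM-scaled CPM per kb on a log axis against the percentage of 50-base windows found exactly in an annotated nuclear transcript, for the 13 protein and 2 rRNA members. Points are means and lines the range of 4 libraries in each set. The 5 members on the right lie between 239 and 1416 CPM per kb in the titled control set.

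Counts at the copies themselves set them apart from their sources in different ways. At Gm28438 there were 279, 250, 165 and 613 counts in titled control 1 to 4 and 204, 157, 134 and 87 in titled CT-26 tumur 1 to 4. mt-Nd3 had fewer in each library, 96, 103, 59 and 154 counts against 60, 66, 27 and 9. For the pair mt-Nd4 and Gm28439 the member held the larger part, at 104629 ± 44259 against 1051 ± 588 CPM in the titled control set (SD, n = 4). These are not like for like, since Gm28439 copies only the first 876 of the 1378 bases of mt-Nd4. Which locus the RNA came from cannot be told from counts of near-identical sequences, so both are uncertain.

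All 13 protein and both rRNA members had enough counts to be tested, and 14 of these 15 were lower in the titled CT-26 tumur set by edgeR's quasi-likelihood test at a Benjamini-Hochberg adjusted p under 0.05, taken over all 6408 genes tested. In the same test 21.6% of all genes were lower, 21.2% higher and 42.8% called in either direction. The median log2 fold change was -1.19 over the 13 protein genes, against -0.02 over all genes tested. TMM-scaled CPM of the sets did not overlap for 10 of the 15, all lower, where 18.9% of all genes were lower and 19.7% higher without overlap. Of the 22 tRNAs 5 passed the filter on low counts, and mt-Ti was lower, which makes 15 members called lower. mt-Ta and mt-Tt passed it through the set in which they are high, so their higher calls are given below as values and set against no share of all genes. The count depends on the scaling, as plain library totals in place of TMM move the median gene by 0.37 on the log2 scale and change the split over all genes from 1359 higher and 1381 lower to 1936 and 725. With plain totals 11 members were still called lower, mt-Co1, mt-Nd4, mt-Nd5 and mt-Nd6 lost the call, and mt-Nd1 stood at 0.00. With sequencing lane as a factor 13 members were lower, and mt-Co1 at -0.88 and mt-Nd5 at -0.83 had no call. In the main fit they stood at -0.86 and -0.77. Under the lane factor titled control 2 and titled CT-26 tumur 3, each alone in its lane, add nothing to the difference between sets. A call lost with lane, here or below, may thus come from fewer libraries as well as from lane, which was not tested.

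**Figure D3:**
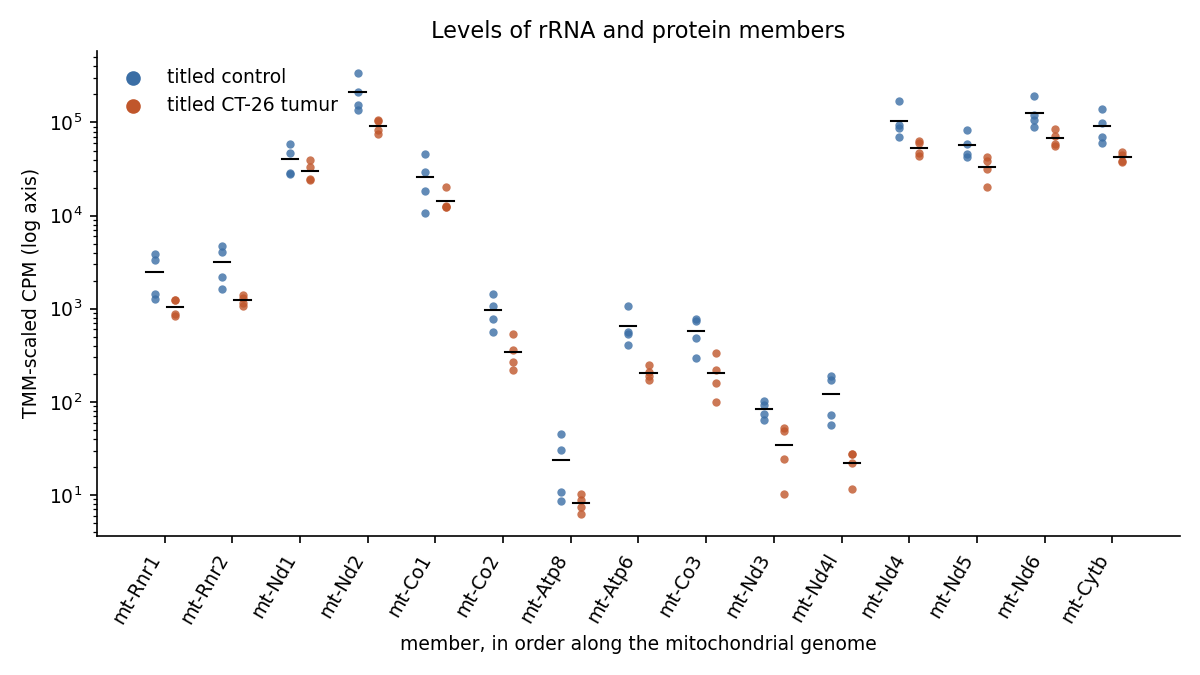
TMM-scaled CPM (log axis) of the 2 rRNA and 13 protein members in each library, in order along the mitochondrial genome. Each point is a library and each black line the mean of 4, and the sets overlap for mt-Nd1, mt-Nd5, mt-Co1, mt-Co3 and mt-Atp8.

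Both rRNAs of the mitochondrial ribosome were called lower. As a share of all counts, without TMM, the 2 together overlapped between sets, at 0.278% to 0.683% against 0.228% to 0.294%. The small subunit rRNA, mt-Rnr1 (chrM:70-1024), stood at 3904, 1268, 1440 and 3324 CPM in titled control 1 to 4 and at 1245, 875, 1252 and 831 CPM in titled CT-26 tumur 1 to 4. Its log2 fold change was -1.24 ± 0.31 (SE, adjusted p 0.00316, edgeR), and its sets came close, titled control 2 at 1268 standing just above titled CT-26 tumur 3. The large subunit rRNA, mt-Rnr2 (chrM:1094-2675), fell from 3172 ± 1505 to 1234 ± 157 CPM (SD, n = 4), with a log2 fold change of -1.36 ± 0.28 (SE, adjusted p 0.000243, edgeR).

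Complex I, the NADH dehydrogenase that feeds electrons into the chain, has 7 subunits encoded here, and 6 of them fell. The membrane subunit gene mt-Nd2 (chrM:3914-4951) stood at 341598, 155388, 136226 and 214236 CPM in titled control 1 to 4. In titled CT-26 tumur 1 to 4 it stood at 104482, 74932, 107494 and 83809 CPM. Every titled control library was above every titled CT-26 tumur library, and the log2 fold change was -1.19 ± 0.33 (SE, adjusted p 0.00426, edgeR). Its upstream neighbour mt-Nd1 (chrM:2751-3707) was the one protein gene without a call. It stood at 59053, 27883, 28878 and 47369 CPM in titled control 1 to 4 and at 39333, 24917, 33178 and 23972 CPM in titled CT-26 tumur 1 to 4. These ranges overlapped, and its log2 fold change was -0.43 ± 0.30 (SE, adjusted p 0.259, edgeR).

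The short gene mt-Nd4l (chrM:9877-10173), another membrane subunit, had the largest change of the protein genes. Its counts were 161, 78, 67 and 318 in titled control 1 to 4 and 25, 37, 13 and 24 in titled CT-26 tumur 1 to 4. In CPM it fell 5.57-fold, a log2 fold change of -2.48 ± 0.40 (SE, adjusted p 0.000176, edgeR), from 123 ± 68.5 to 22.1 ± 7.37 CPM without overlap. mt-Nd4 (chrM:10167-11544), whose first bases overlap the end of mt-Nd4l in the same mRNA, changed by -0.96 ± 0.31 on the log2 scale (SE, adjusted p 0.0141, edgeR). mt-Nd3 changed by -1.26 ± 0.33, mt-Nd6 by -0.92 ± 0.31 and mt-Nd5 by -0.77 ± 0.30 on the same scale, with adjusted p of 0.00468, 0.0177 and 0.0409 in edgeR. mt-Nd5 (chrM:11742-13565) overlapped between sets, ranging from 42478 to 82916 CPM against 20324 to 42967 CPM. Without titled control 1, the library with the highest share, mt-Nd4, mt-Nd5 and mt-Nd6 lost their calls at -0.62, -0.53 and -0.63.

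Complex III has 1 mitochondrially encoded subunit, cytochrome b, from mt-Cytb (chrM:14145-15288). It stood at 139163, 69628, 59616 and 97618 CPM in titled control 1 to 4 and at 44738, 37608, 48614 and 38156 CPM in titled CT-26 tumur 1 to 4. The sets did not overlap and its log2 fold change was -1.11 ± 0.31 (SE, adjusted p 0.00403, edgeR).

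The 3 catalytic core subunits of complex IV, cytochrome c oxidase, were all called lower. mt-Co2 (chrM:7013-7696) went from 969 ± 386 to 343 ± 136 CPM without overlap, and mt-Co3 (chrM:8607-9390) from 574 ± 224 to 203 ± 99.5 CPM with overlap (SD, n = 4 each). Both changed by -1.49 on the log2 scale, with adjusted p of 0.000259 and 0.00363 in edgeR. mt-Co1 (chrM:5328-6872) was far more abundant and varied most among the titled control libraries, at 29454, 10781, 18399 and 45692 CPM. In titled CT-26 tumur 1 to 4 it stood at 12527, 12377, 12559 and 20200 CPM, so that titled control 2 lay below all of them. Its log2 fold change was -0.86 ± 0.34 (SE, adjusted p 0.0438, edgeR), and without titled control 4 it was -0.43 with no call.

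Complex V, the ATP synthase, has 2 membrane subunits encoded here by overlapping genes, mt-Atp8 (chrM:7766-7969) and mt-Atp6 (chrM:7927-8607). mt-Atp6 stood at 557, 409, 536 and 1078 CPM in titled control 1 to 4. It stood at 188, 210, 171 and 246 CPM in titled CT-26 tumur 1 to 4, with no overlap and a log2 fold change of -1.66 ± 0.25 (SE, adjusted p 5.71e-06, edgeR). mt-Atp8 had only 42, 12, 10 and 51 counts in titled control 1 to 4 and 10, 10, 7 and 9 in titled CT-26 tumur 1 to 4. Its log2 fold change of -1.53 ± 0.45 (SE, adjusted p 0.00699, edgeR) was -1.08 with no call without titled control 1. The 5 protein members with more than 90% of windows copied had a median log2 fold change of -1.49, and the other 8 one of -0.94. This difference between members was not tested.

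**Figure D4:**
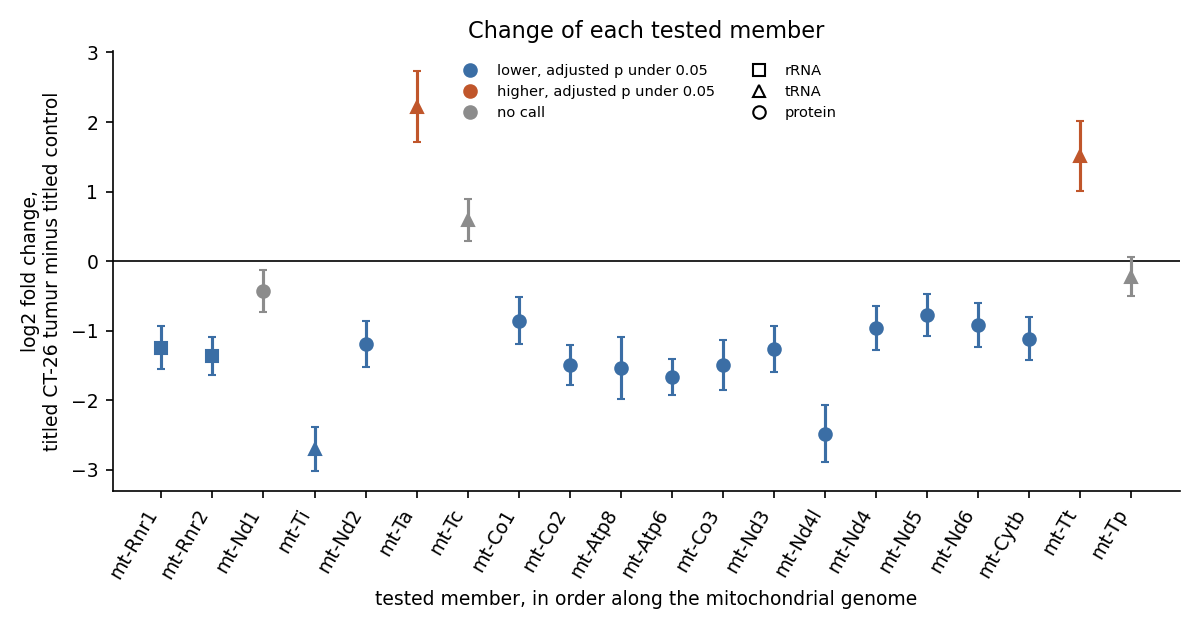
Log2 fold change (titled CT-26 tumur minus titled control) of the 20 tested members in order along the mitochondrial genome, with bars of 1 SE from edgeR and symbols by kind of gene. Of the 15 protein and rRNA members all but mt-Nd1 are called lower, while mt-Ta and mt-Tt, tRNAs that passed the filter through the titled CT-26 tumur libraries, are called higher.

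The tRNA genes, which are only 59 to 75 bases long, gave few counts and did not move together. Of 22, 8 had no count in any library (mt-Tf, mt-Tv, mt-Ty, mt-Td, mt-Tk, mt-Tg, mt-Tr and mt-Ts2). Over the 9804413 counts of all 8 libraries, 0 counts allow a level of up to 0.306 CPM for each, for counting error only. A further 9 (mt-Tl1, mt-Tq, mt-Tm, mt-Tw, mt-Tn, mt-Ts1, mt-Th, mt-Tl2 and mt-Te) had at most 12 counts in a library and were not tested. Mature tRNAs are shorter than usual library inserts, so the fragments counted here need not be mature tRNA. A fragment that overlapped a tRNA and a neighbouring gene was assigned to neither under the counting options in the headers. The 3 tRNAs with a call are printed from GENCODE M21, 5′ to 3′ on their own strand, to show how little sequence the counts rest on.
mt-Ti: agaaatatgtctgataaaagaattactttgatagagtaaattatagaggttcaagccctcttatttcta
mt-Ta: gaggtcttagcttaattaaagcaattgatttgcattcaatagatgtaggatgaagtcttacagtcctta
mt-Tt: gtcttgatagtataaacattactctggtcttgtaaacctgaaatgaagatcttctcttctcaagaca
mt-Ti, the isoleucine tRNA (chrM:3706-3774, plus strand), fell most of all tested members. It had 262, 174, 128 and 488 counts in titled control 1 to 4 and 55, 27, 29 and 31 in titled CT-26 tumur 1 to 4. Its log2 fold change was -2.70 ± 0.32 (SE, adjusted p 7.05e-07, edgeR), a 6.49-fold lower level, and the sets did not overlap.

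mt-Ta, the alanine tRNA (chrM:5018-5086, minus strand), was higher, with 4, 4, 2 and 1 counts against 11, 17, 14 and 8. Its level was 2.48 ± 1.53 CPM in the titled control set and 11.0 ± 1.82 CPM in the titled CT-26 tumur set (SD, n = 4), a log2 fold change of 2.22 ± 0.51 (SE, adjusted p 0.000825, edgeR). mt-Tt, the threonine tRNA (chrM:15289-15355, plus strand), had 3, 13, 0 and 5 counts against 14, 15, 12 and 13. Its log2 fold change was 1.51 ± 0.51 (SE, adjusted p 0.0166, edgeR), and 1.18 with no call without titled control 3. Both genes passed the filter on low counts through the titled CT-26 tumur libraries, so a higher level there comes with the filter. mt-Tc, the cysteine tRNA, had a log2 fold change of 0.59 (adjusted p 0.11, edgeR) and mt-Tp, the proline tRNA, one of -0.23 (adjusted p 0.54, edgeR), both with overlap.

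The make-up of the mitochondrial counts, which no scaling between libraries touches, shifted between the neighbours mt-Nd1 and mt-Nd2. mt-Nd2 gave 33.3%, 30.7%, 30.3% and 31.0% of the mitochondrial counts in titled control 1 to 4. In titled CT-26 tumur 1 to 4 it gave 28.0%, 27.6%, 27.3% and 26.7%. mt-Nd1 gave 5.75%, 5.51%, 6.42% and 6.86% in titled control 1 to 4 against 10.6%, 9.17%, 8.44% and 7.64%. Neither pair of ranges overlapped, and the means differed by -3.89 percentage points for mt-Nd2 and by 2.82 points for mt-Nd1. The other abundant members overlapped: the mean of mt-Nd6 differed by 0.62 points. In means over 4 libraries mt-Nd4 gave 15.6% against 15.9%, mt-Cytb 13.7% against 12.6%, mt-Nd5 8.75% against 9.86% and mt-Co1 3.92% against 4.39%.

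Count ratios were tested in 7 pairs of members by a two-sided exact permutation test over all 70 assignments, whose smallest possible p is 0.0286, adjusted over the 7. The log2 ratio of mt-Nd1 to mt-Nd2 was -2.53, -2.48, -2.24 and -2.18 in titled control 1 to 4 and -1.41, -1.59, -1.70 and -1.81 in titled CT-26 tumur 1 to 4. It was 0.73 higher in the titled CT-26 tumur set, a 1.66-fold ratio, without overlap (exact permutation p 0.0286, adjusted 0.10). The ratio of mt-Nd4l to mt-Nd4 was 1.44 log2 units lower there, also without overlap (difference -1.44, exact permutation p 0.0286, adjusted 0.10). No pair passed after adjustment, and a pair at the smallest possible p could pass only if most of the 7 pairs stood there too. For mt-Co1 to mt-Co2 the difference was 0.80 (exact permutation p 0.143, adjusted 0.333), and for mt-Nd5 to mt-Cytb it was 0.27 (exact permutation p 0.286, adjusted 0.48). The differences for mt-Rnr1 to mt-Rnr2, mt-Nd6 to mt-Nd5 and mt-Co2 to mt-Co3 were 0.14, -0.10 and 0.05.

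mt-Nd1 and mt-Ti, which share 2 bases in the annotation, were also set against each other within each library. For each 1000 counts of mt-Nd1 there were 4.74, 4.52, 4.76 and 6.20 counts of mt-Ti in titled control 1 to 4. In titled CT-26 tumur 1 to 4 there were 1.24, 0.798, 0.781 and 1.47. This ratio was chosen after its values were seen and is described without a test.

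**Figure D5:**
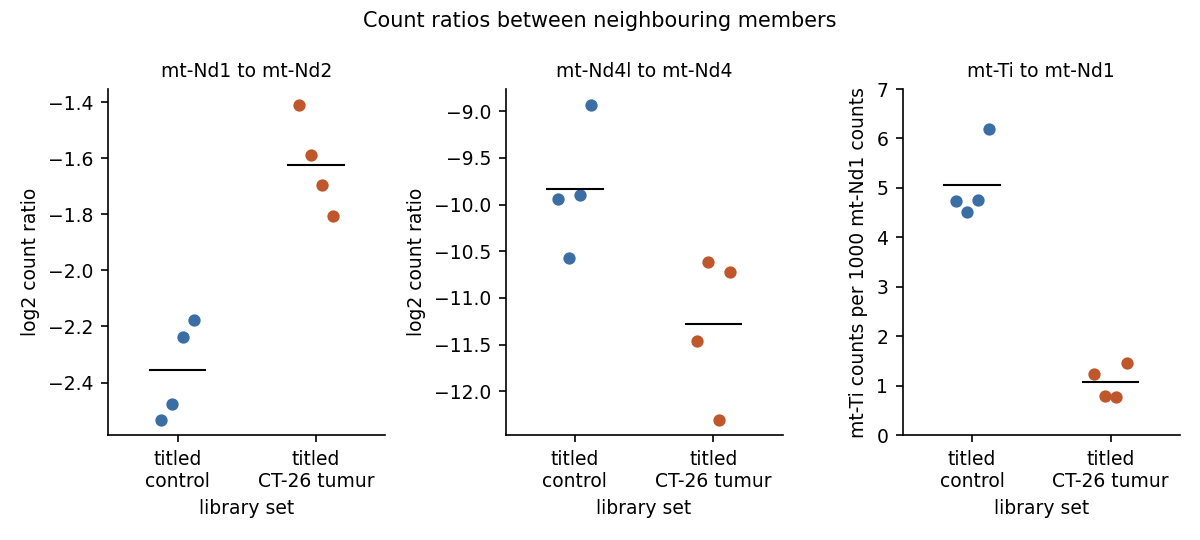
Log2 count ratios of mt-Nd1 to mt-Nd2 and of mt-Nd4l to mt-Nd4, and counts of mt-Ti for each 1000 counts of mt-Nd1, by library set. Points are libraries and lines the mean of 4, and in each panel the sets do not overlap.

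The 7 pseudogenes of the chromosome 1 block were measured in the same fit, where 4 of 7 were lower and 21.6% of all genes were. Gm28439 changed by -1.68, Gm10222 by -1.58, Gm10925 by -1.16 and Gm28438 by -0.99 on the log2 scale, with adjusted p of 0.000665, 0.011, 0.000211 and 0.00172 in edgeR. Gm28661 stood at -0.91, Gm29216 at -0.85 and Gm28437 at -0.61, without a call. Titled CT-26 tumur 2 was high at these 3, with 499 counts at Gm28661 against 132 to 205 in the other libraries of its set, and without it all 7 were lower. Added to their sources, the copies left 15 members called lower.

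Nuclear genes that serve the mitochondrial genome were taken as 9 lists of 274 genes, of which 154 were tested. 22 were higher and 14 lower, where 21.2% of all genes were higher and 21.6% lower, and their median log2 fold change was 0.07. With lane as a factor 13 were higher and 9 lower, and with plain library totals 45 and 4.

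Of the 10 genes of mitochondrial transcription, 3 were tested and 0 had a call in edgeR or in DESeq2, while 1 had an unadjusted p under 0.05, Mterf3 at -0.84 (adjusted p 0.0507, edgeR). Tfam, which packages and starts transcription of mitochondrial DNA, stood at 44.4 ± 7.96 and 39.7 ± 13.3 CPM (SD, n = 4), a log2 fold change of -0.17. Mitochondrial DNA upkeep had 3 of 5 tested genes lower, where 21.6% of all genes tested were. These were Dguok, a deoxyguanosine kinase that supplies nucleotides, at -2.09, Rrm2b, a ribonucleotide reductase subunit, at -1.68, and Ssbp1, which coats single-stranded mitochondrial DNA, at -0.92. Dguok passed the filter on low counts through the titled control libraries, with 19, 37, 10 and 59 counts there against 8, 7, 5 and 5. A lower level of Dguok in the other set thus comes with the filter. Rrm2b passed it in part through the same libraries, with 37, 42, 29 and 35 counts against 12, 10, 5 and 14. Ssbp1 had no call with plain library totals (-0.54) or with lane as a factor (-0.80). Of 9 tested genes of mitochondrial RNA processing and decay, 1 was lower, Trmt10c, a subunit of the enzyme that cuts the 5′ ends of mitochondrial tRNAs. It stood at -0.82 ± 0.34 (SE, adjusted p 0.0489, edgeR), and this call was lost in 10 of 15 alternative settings. Of the 4 tested translation factors and tRNA ligases, 0 had a call in edgeR or in DESeq2, and 0 had an unadjusted p under 0.05. CPM were also summed over all listed genes, tested or not, without a test. For transcription the sum was 112 to 122 in titled control libraries against 61.9 to 103 in the other set. DNA upkeep stood at 122 to 155 against 59.0 to 77.8, and translation factors and ligases at 157 to 209 against 114 to 142. With TMM scaling these did not overlap, while RNA processing did, at 352 to 409 against 270 to 355. Without the TMM factors, which ran from 0.654 to 1.23, the sums for transcription and for translation factors and ligases overlapped too.

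Proteins of the mitochondrial ribosome had 4 of 39 tested genes lower and 1 higher, with a median log2 fold change of 0.00. Over all genes tested 21.6% were lower and 21.2% higher. Summed over all 79 listed genes, TMM-scaled CPM were 1136 to 1343 in titled control libraries against 833 to 1096 in the other set, without overlap. Without the TMM factors these sums overlapped. Mrpl42 fell by 1.04, Mrps21 by 0.98, Mrps15 by 0.97 and Mrps33 by 0.80 on the log2 scale. Of these, Mrpl42 was called in all 15 alternative settings. Mrps33 lost its call in 5 of them, Mrps21 with plain library totals and with lane as a factor, and Mrps15 with plain totals and with no filter on low counts. The gene that was higher, Mrpl45, named after its values were seen, stood at 1.28 and lost its call in 5 settings, among them lane as a factor (0.76). Among 6 tested nuclear regulators, Nrf1, a transcription factor of respiratory genes, was the only one called, at 1.09, and with lane as a factor it stood at 0.88 with no call. The summed CPM of all listed regulators was 214 to 250 in titled control libraries against 256 to 320, higher without overlap.

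Nuclear-encoded subunits of the respiratory chain stood on both sides of 0. Of 67 tested, 13 were higher and 3 lower, with a median log2 fold change of 0.04. Over all genes tested 21.2% were higher, a share near that of these subunits, and 21.6% lower. Their summed CPM overlapped, at 4572 to 5102 in titled control libraries against 4809 to 7080. Without the TMM factors these sums did not overlap and were higher in the titled CT-26 tumur set. Complex I had 2 higher and 2 lower of 31 nuclear genes, with a median of -0.07, where its 7 mitochondrially encoded genes had one of -0.96. In complex III 3 of 9 nuclear genes were higher with a median of 0.41, against -1.11 for mt-Cytb. In complex IV 2 of 10 were higher with a median of 0.05, against -1.49 for the 3 mitochondrially encoded genes. In complex V 5 of 13 were higher and 1 lower with a median of 0.48, against -1.60 for mt-Atp6 and mt-Atp8. Complex II, with all its subunits from the nucleus, had 1 of 4 higher and a median of -0.03. The 3 lower genes, named after their values were seen, were Ndufa9 at -0.88 and Ndufa12 at -0.85 of complex I and Atp5g2 of complex V at -1.32, and with plain library totals each lost its call. The 4 genes of smallest p were all higher: Ndufa10 of complex I at 0.94 and Atp5k and Atp5l of complex V at 1.18 and 1.11 (log2), with Atp5b of complex V at 65.5 ± 31.2 against 132 ± 26.3 CPM (SD, n = 4). With lane as a factor Atp5l and Atp5b stood at 0.92 and 0.74 with no call.

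Lists for mitochondrial content and removal held calls in both directions, where 21.2% of all genes tested were higher and 21.6% lower. Of 11 tested genes of mitochondrial content, 2 were higher and 1 lower, the higher ones being Vdac1, the outer membrane channel, at 112 ± 22.9 against 225 ± 21.9 CPM (SD, n = 4), and Phb2, an inner membrane scaffold, with a log2 fold change of 0.73. With lane as a factor Phb2 stood at 0.69 with no call. The lower gene, Tomm70a, an import receptor of the outer membrane, stood at -0.56 (adjusted p 0.049, edgeR), and this call was lost in 12 of 15 alternative settings. Of 10 tested genes of mitophagy, the removal of mitochondria, 5 were higher and 2 lower. Ulk1, a kinase that starts autophagy, stood at 2.97, Optn, an autophagy receptor, at 2.36, Pink1, the kinase that marks damaged mitochondria, at 1.88, and Fundc1, an outer membrane receptor, at -1.80. Summed CPM was 583 to 683 in titled control libraries against 729 to 904 for content. For mitophagy it was 658 to 761 against 893 to 1055, and both sums were higher without overlap.

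Markers of cell types also differed between the sets, some lower and some higher in the titled CT-26 tumur set. The summed CPM of 6 B cell markers was 1289 to 1747 in titled control libraries against 225 to 394 in the other set, with 6 of 6 lower, and that of 6 T cell markers 462 to 524 against 109 to 245, with 6 of 6 lower. Red pulp macrophage markers went from 1309 to 1419 down to 691 to 900 CPM, with 3 of 5 tested lower. Without the TMM factors these macrophage sums overlapped. All 8 erythroid precursor markers were higher, at 786 to 945 against 2959 to 5536 CPM, as were all 8 neutrophil lineage markers at 420 to 1098 against 3269 to 7928 CPM. All 6 markers of dividing cells were higher, at 474 to 711 against 2805 to 4131 CPM. In the same test 21.2% of all genes were higher and 21.6% lower. The share of haemoglobin counts was 5.94 ± 2.50% against 8.61 ± 1.58% (SD, n = 4), with overlap. Malat1, an RNA kept in the nucleus, was higher at 1.51 (log2), and its list of 4 nuclear-retained and overlap genes summed to 27.7 to 87.0 against 86.3 to 189 CPM. Exocrine pancreas markers reached 1211 CPM in titled control 4 and 785 CPM in titled CT-26 tumur 3, against 7.96 to 184 CPM elsewhere, and 1 of 3 tested was lower. Muscle markers summed to at most 2.17 CPM, with Myh6, Myh7 and Mb at 0, and liver markers to at most 35.4 CPM. The part of these cell types in the mitochondrial results was not tested.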

How the data were processed

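The deposited tables of the 8 RNA libraries hold unnormalised fragment counts per gene, made with featureCounts 2.0.1 on GENCODE M29, a GRCm39 annotation, unstranded and without options for multi-mapped or multi-gene fragments, per the file headers. Trimmomatic 0.39 and STAR 2.7.10a are named in the submitters' processing notes, which list both GRCm39 and GRCm38. All 37 mitochondrial genes have the same coordinates in GENCODE M21, on GRCm38, whose transcripts gave the sequences, and nuclear coordinates are those of the tables. The TCR and BCR tables were not used here. Symbols were found for 52081 of 55414 genes, and for 342 of 347 list entries.

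Counts were tested with edgeR 4.0.16 in R 4.3.3: filterByExpr, TMM, robust quasi-likelihood test, Benjamini-Hochberg adjustment over 6408 genes, threshold 0.05. CPM use TMM-scaled totals, whose factors ran from 0.654 to 1.23. Intervals cover counting error only. Ratios used counts plus 0.5. Windows and copies came from the M21 transcripts with BLAST+ 2.17.0. The fit was tested on simulated data with 200 genes changed, where it called 48% of 2-fold and 88% of 4-fold changes. Of its 148 calls there, 12 were false. Values after ± are SD over 4 libraries unless named SE. No libraries of a set agreed within sampling noise.

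The members and lists were chosen with earlier results of these data known. Named are all protein and rRNA members, the tested tRNAs, up to 4 tested genes of smallest p per nuclear list, and the copies. Malat1 and the genes marked so in the text were named after their values were seen. Replicate numbers were not treated as pairs, since correlations between same-numbered libraries lay between -0.0914 and 0.0764 and no label states pairing. Alternatives were other scaling, no filter, DESeq2 1.42.0, lane, a replicate block, summed copies and leaving out each library.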

Additional observations from a re-analysis of the deposited data

Results flagged for a closer look

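Each set of 4 libraries was screened for a value far from the other 3, and 2 of 74 sets held one, where chance gives about 1 in 20. mt-Co1 stood at 20200 CPM in titled CT-26 tumur 4, while the other 3 libraries of its set lay at 12377, 12527 and 12559 CPM, so the gap to the nearest was 0.977 of the range. The log2 count ratio of mt-Co2 to mt-Co3 was 1.14 in titled CT-26 tumur 3, against 0.67, 0.70 and 0.74 in the others, a gap of 0.852 of the range.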

How the results depend on the processing

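The number of members called lower, 15, ranged from 10 to 15 with 1 library left out and was 11 with plain library totals and 13 with lane as a factor. The difference in mitochondrial share ranged from -20.2 to -13.6 points with 1 library left out. For the nuclear lists, plain library totals gave 4 lower and 45 higher, no filter on low counts gave 22 lower, and lane as a factor gave 9 lower and 13 higher, of 14 and 22. With 1 library left out the copies on chromosome 1 had 4 to 7 lower, 7 being without titled CT-26 tumur 2. mt-Nd1 turned from -0.43 to 0.00 (0.00132) with plain totals, and mt-Tp from -0.23 to 0.19 with plain totals. With 1 library left out mt-Tp ranged from -0.42 to 0.16, at 0.16 without titled control 4. Tfam turned from -0.17 to 0.21 with plain totals, and ranged from -0.31 to 0.0649 with 1 library left out, at 0.0649 without titled CT-26 tumur 2. The difference for mt-Co2 to mt-Co3 ranged from -0.0642 to 0.0966 with 1 library left out, at -0.0253 without titled control 1 and -0.0642 without titled CT-26 tumur 3, and that for mt-Nd6 to mt-Nd5 from -0.23 to 0.0527, at 0.0527 without titled CT-26 tumur 4. Calls were lost by mt-Co1 in 7 of 16 settings, mt-Nd5 in 7, mt-Nd6 in 4 and mt-Nd4 in 3, and mt-Tc gained one in 2, standing at 0.95 without titled control 3. The cause was not tested. A replicate block by number gave 15 members lower. Among named genes it ended only the call of Tomm70a, at -0.59, and for the ratios its smallest possible p is 0.125. Depth limits the tRNAs and mt-Atp8, with at most 51 counts in a library for mt-Atp8.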
